A study of Mus musculus with 56 samples.

Results

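10 genes that restrain signalling through the ERK kinases or through G proteins were followed in fetus-specific CD8 T cells before and after pregnancy. They are the dual-specificity phosphatase genes *Dusp2*, *Dusp4*, *Dusp5*, *Dusp6* and *Dusp10*, the Sprouty genes *Spry1* and *Spry2*, and the regulator of G-protein signalling genes *Rgs1*, *Rgs2* and *Rgs16*. They were chosen by name, by matching the Ensembl identifiers of the RNA-Seq count table to these symbols, and make up 10 of its 55359 genes. All 10 had enough counts to be tested, as did 19659 genes in all.

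When a T cell receptor or a growth factor receptor is engaged, RAS, RAF and MEK pass the signal to ERK, which enters the nucleus and turns on early genes. Several of those genes code for brakes on the same route. DUSP proteins remove the phosphates that activate ERK, p38 and JNK, and Sprouty proteins act further upstream, between the receptor and RAF. RGS proteins speed the switching-off of G-protein alpha subunits and so shorten the signals of chemokine receptors and others coupled to them. In T cells, transcripts of this kind are widely used as a readout of recent or continued receptor signalling.

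The cells were OVA:Kb-specific CD8 T cells, called TFGS, sorted from the spleen and pooled lymph nodes of single female C57BL/6 mice that were 8 to 12 weeks old when purchased. OVA is the model antigen of 2W-OVA.BALB/c mice, which express it constitutively, and the TFGS were the mice's endogenous cells. Naive mice (n = 3) were unmated and ungrafted. Sensitized mice (n = 4) had rejected a skin graft from a male 2W-OVA.BALB/c donor and were sampled on day 30 or later after grafting. N+P mice were naive and S+P mice were sensitized before a semi-allogeneic pregnancy by a 2W-OVA.BALB/c male, and both were sampled on post-partum day 0 to 3. From N+P mothers the PD1- subset C1 (n = 3) and the PD1+CD73+ subset C5 (n = 3) were sorted. From S+P mothers the PD1- subset C4 (n = 6), the PD1+CD73+ subset C5 (n = 6) and the PD1+CD73- subset C7 (n = 5) were sorted. Subsets of 1 mother are not independent animals, and PD-1 and CD73 defined the gates. Each library was made from 200 cells, so in these bulk samples fewer expressing cells and less RNA per cell cannot be told apart.

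The 30 samples had 15547934 to 54809406 counts and 7436 to 26805 genes with a count. Fewer than 9000 such genes were found in 3 samples that stood apart from the rest, replicates 2 and 3 of S+P C4 and replicate 3 of S+P C7. 1 library held identical counts under Naive replicate 1 and S+P C4 replicate 1 and was left out of both. Libraries of S+P C7 replicates 1 and 2 that were almost the same were replaced by their mean, called replicate 1 here. The library left out had 5.69 CPM (counts scaled to a common total per sample) of *Dusp4*, 49.5 of *Dusp6*, 4.91 of *Spry1*, 5.46 of *Spry2* and 12.8 of *Rgs16*. The remaining library of Naive replicate 1 had 0.265, 0.682, 0, 0 and 0, so which mouse the left-out library came from bears on every comparison with Naive. CD8 T cell markers summed to 3333 CPM or more in every sample, and B cell markers to at most 7.05 CPM. Erythroid and platelet genes reached a sum of 16512 CPM in 1 S+P C7 sample, and myeloid genes 345 CPM in 1 Sensitized sample.

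Across the 12 comparisons made, edgeR placed 0 of the 10 genes past both thresholds, which were an adjusted p below 0.1 and a log2 fold change beyond 0.9 in either direction. Few genes of any kind passed them. The share of all tested genes was 0.153% for Sensitized versus Naive, 0.0407% for N+P C5 versus Naive, 0.0712% for S+P C5 versus Sensitized and 0.0305% for S+P C7 versus Sensitized. It was 0.0305% for S+P C5 versus S+P C4, 0.0254% for the difference between the lineages described last, 0.00509% for N+P C5 versus N+P C1, S+P C4 versus Sensitized and S+P C7 versus S+P C4, and 0% for the other 3. At an unadjusted p under 0.05 without multiple testing correction, edgeR counted 3, 3, 3 and 1 of the 10 genes in the first 4 of these comparisons, beside 7.85%, 5.34%, 13.0% and 10.2% of all genes. With DESeq2 on the same samples, 2, 3, 2 and 0 of the 10 passed both thresholds, beside 5.05%, 4.88%, 5.16% and 3.46% of all genes. With technical libraries entered separately, edgeR called 1, 2, 3 and 1 of the 10, beside 1.02%, 0.653%, 6.88% and 4.6% of all genes. The levels that follow are therefore mostly descriptions, and a gene is said to have passed only where a named test called it. The p-values measure the spread between these samples only.

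**Figure D1:**
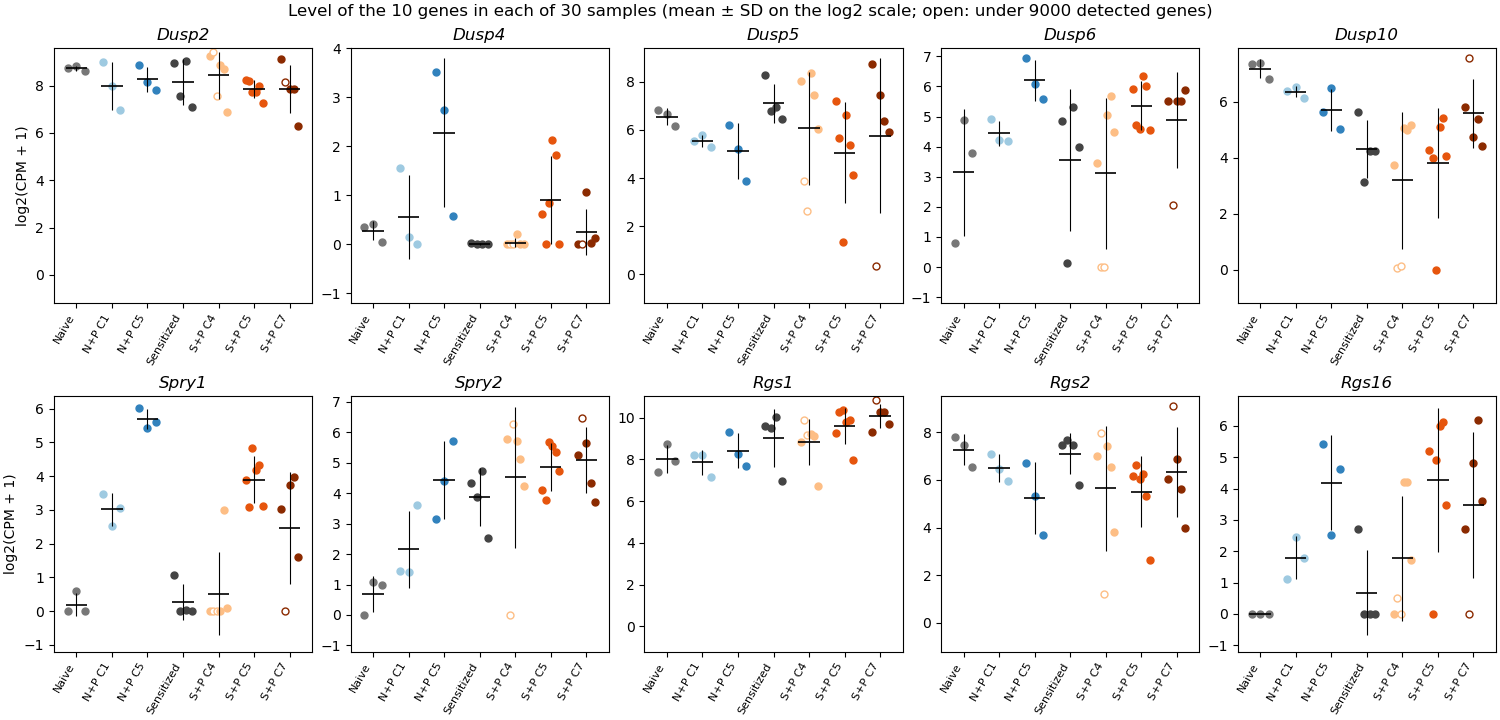
Level of each gene as log2(CPM + 1) on the vertical axis in the 30 samples, by sorted group on the horizontal axis. Each point is 1 sample, horizontal bars are group means, vertical bars are ± 1 SD on the log2 scale, and open points are the 3 samples with under 9000 detected genes. *Spry1* is near 0 in Naive and Sensitized and highest in the 3 N+P C5 samples, while *Dusp2* and *Rgs1* are high in every sample.

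Among the 10 genes, *Dusp6*, *Spry1* and *Rgs16* followed each other most closely over the 30 samples. Spearman's rho was 0.779 for *Dusp6* and *Spry1*, 0.768 for *Spry1* and *Rgs16*, and 0.762 for *Dusp6* and *Rgs16*. The samples share mothers and groups, so these values are descriptions. Their upstream sequences are shown because the levels of the 3 genes moved together. Each is the 250 bases before the start of the gene's canonical GENCODE transcript in GRCm39, taken from the plus strand and written 5′ to 3′. Capitals mark GGAAAA or its reverse complement, the core bound by NFAT factors, which T cell receptor signalling activates.
*Spry1* chr3:37693647-37693896: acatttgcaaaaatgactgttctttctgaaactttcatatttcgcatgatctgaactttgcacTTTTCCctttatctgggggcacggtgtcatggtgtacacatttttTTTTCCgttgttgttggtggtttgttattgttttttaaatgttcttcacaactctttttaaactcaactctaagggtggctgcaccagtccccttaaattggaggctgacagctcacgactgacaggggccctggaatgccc
*Dusp6* chr10:99098818-99099067: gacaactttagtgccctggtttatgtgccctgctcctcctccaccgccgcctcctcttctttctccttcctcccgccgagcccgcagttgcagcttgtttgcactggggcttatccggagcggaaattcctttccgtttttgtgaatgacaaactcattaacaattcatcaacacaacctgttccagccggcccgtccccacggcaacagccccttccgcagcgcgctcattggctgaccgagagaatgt
*Rgs16* chr1:153615841-153616090: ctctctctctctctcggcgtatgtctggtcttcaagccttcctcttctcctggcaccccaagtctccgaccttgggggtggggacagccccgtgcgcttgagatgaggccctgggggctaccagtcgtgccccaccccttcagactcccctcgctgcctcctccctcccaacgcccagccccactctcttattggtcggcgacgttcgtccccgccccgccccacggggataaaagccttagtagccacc
The *Spry1* window held 2 such matches, the first base of each lying 187 and 142 bases before the start, and the windows of *Dusp6* and *Rgs16* held none. Of all 10 genes, *Spry1* and *Rgs1* had a match, against 21.9% of 21770 protein-coding promoters of this length. AP-1 (TGANTCA, 6.17% of promoters), CRE (TGACGTCA, 1.69%) and ETS (CCGGAAG, 6.89%) letters, searched on both strands, were in none of the 10 windows. A CArG box, the motif of serum response factor, was in that of *Dusp5* and in 1.40% of promoters. The canonical start of *Dusp6* lies inside its annotated span, and all 3 printed windows overlap exons of other annotated transcripts without a known product.

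*Dusp2* (ENSMUSG00000027368, chromosome 2, 127177957 to 127180296, plus strand, GRCm39) codes for a nuclear phosphatase first found in activated lymphocytes. It had 433, 449 and 390.2 CPM in the 3 Naive mice, 505, 254 and 126 in N+P C1 and 465, 281 and 227 in N+P C5. The 4 Sensitized mice had 491, 189, 522 and 134. S+P C4 spanned 119 to 679.7 CPM, with a median of 439, S+P C5 151 to 299 CPM, with a median of 232, and the 5 S+P C7 samples had 563, 288, 235, 229 and 76.5. No neighbouring groups in the order of means were apart, and the means ran only from 237 ± 56.6 in S+P C5 to 424 ± 30.6 in Naive (mean ± SD). The lowest value in each of the 3 S+P subsets belonged to replicate 6. The log2 fold change of S+P C5 versus S+P C4 was -0.80 ± 0.43 (SE) (edgeR adjusted p = 0.447).

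*Dusp4* (ENSMUSG00000031530, chromosome 8, 35274442 to 35287048, plus strand), a nuclear phosphatase for ERK and JNK, was the scarcest of the 10, with its highest mean in N+P C5. Its values were 10.5, 5.73 and 0.497 CPM in N+P C5, 0.288, 0.331 and 0.0378 in Naive and 1.93, 0.104 and 0 in N+P C1. All 3 N+P C5 values were above the Naive ones, by a small margin in replicate 3. The left-out library alone had 5.69 CPM, above the value of that replicate. In the sensitized lineage it had 0.0180, 0, 0 and 0 CPM in Sensitized mice, where the single value above 0 was 1 count. S+P C4 had a count in 1 of 6 samples, at 0.166 CPM, and S+P C7 values were 0, 0, 1.11, 0.0259 and 0.0978. S+P C5 ran from 0 to 3.41 CPM, with a median of 0.665, with 2 of the 6 samples at 0. Its fitted log2 fold change in S+P C5 was 7.08 ± 2.70 (SE) versus Sensitized and 5.19 ± 2.09 (SE) versus S+P C4 (edgeR adjusted p = 0.276 and 0.297). Both rest on a group with almost no counts, so their size depends on the prior count. DESeq2 called *Dusp4* in both comparisons (adjusted p = 0.0184 and 0.0748), where it called 5.16% and 4.76% of all genes.

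*Dusp5* (ENSMUSG00000034765, chromosome 19, 53517532 to 53530862, plus strand) codes for a nuclear phosphatase specific for ERK. It had 111, 101 and 69.7 CPM in Naive, 45.4, 54.4 and 38.3 in N+P C1 and 72.8, 36.3 and 13.9 in N+P C5. All N+P C1 values were below the Naive ones, and N+P C5 overlapped with both. Sensitized mice had 308, 108, 123 and 85.7, with replicate 1 far above the others. The S+P subsets spread most, from 5.16 to 328 CPM, with a median of 119 in S+P C4, from 1.53 to 145 CPM, with a median of 45.1 in S+P C5, and with 429, 0.280, 171, 82.3 and 58.6 in S+P C7. Means were 156 ± 102 in Sensitized and 58.5 ± 53.7 in S+P C5 (mean ± SD), and the log2 fold change of -1.42 ± 0.99 (SE) had an edgeR adjusted p of 0.733. Replicates 2 and 3 of S+P C4 and replicate 3 of S+P C7, the samples with few detected genes, were the lowest of their subsets, as was replicate 3 in S+P C5. In the 2 libraries of S+P C5 replicate 6 it had 31.6 and 0 CPM.

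*Dusp6* (ENSMUSG00000019960, chromosome 10, 99086564 to 99103361, plus strand), the cytoplasmic phosphatase of ERK and a standard ERK target gene, was highest in N+P C5. The 3 mothers had 121, 67.2 and 47.3 CPM there and 29.01, 17.6 and 17.3 in C1, and Naive mice had 0.741, 28.2 and 12.7. N+P C5 stood above both without overlap, and C1 overlapped with Naive. The left-out library alone had 49.5 CPM, above the lowest C5 value. The mean of 78.6 ± 38.4 CPM (SD, n = 3) in N+P C5 compares with 13.9 ± 13.8 CPM (SD, n = 3) in Naive. The log2 fold change was 2.50 ± 1.61 (SE), with an edgeR adjusted p of 0.846, and DESeq2 gave 0.924. Sensitized mice had 27.7, 0.10, 38.96 and 14.7 CPM. S+P C4 ran from 0 to 49.9 CPM, with a median of 15.8, S+P C5 from 22.7 to 81.3 CPM, with a median of 42.3, and S+P C7 had 44.4, 3.18, 44.5, 45.2 and 57.99. S+P C5 overlapped with Sensitized, at a log2 fold change of 1.17 ± 1.26 (SE) (edgeR adjusted p = 1). The zeros of S+P C4 and the low value of S+P C7 were in the samples with few detected genes.

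*Dusp10* (ENSMUSG00000039384, chromosome 1, 183745499 to 183807842, plus strand) codes for a phosphatase that acts mainly on JNK and p38, and its highest mean was in Naive mice. Naive mice had 160.5, 168 and 110.0 CPM, N+P C1 81.9, 91.3 and 69.5 and N+P C5 48.5, 88.5 and 31.2. All Naive values were above those of both N+P subsets. The left-out library alone had 63.7 CPM, below every N+P C1 value. Sensitized mice, with 48.6, 7.70, 17.96 and 18.04, also lay below all Naive mice. S+P C4 ran from 0.0521 to 34.96 CPM, with a median of 21.4 and S+P C5 from 0 to 41.96 CPM, with a median of 17.1. S+P C7 had 55.6, 186, 25.7, 41.1 and 20.2, where the highest value was that of replicate 3. The Naive mean was 146 ± 31.4, that of N+P C5 56.1 ± 29.4 and that of Sensitized 23.1 ± 17.7 (mean ± SD). The log2 fold changes versus Naive were -1.38 ± 1.41 (SE) for N+P C5 and -2.66 ± 1.32 (SE) for Sensitized (edgeR adjusted p = 1 and 0.626). A sum over 12 immediate early and heat shock genes that tissue dissociation is known to induce also had lower values. Its range was 4555 to 9210 CPM among Naive mice, 2461 to 5097 CPM among N+P C5 and 3364 to 7461 CPM among Sensitized mice, and its part in the result was not tested.

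*Spry1* (ENSMUSG00000037211, chromosome 3, 37693897 to 37698755, plus strand), an ERK-induced inhibitor of RAS and RAF activation, separated the groups most clearly. Naive mice had 0, 0.497 and 0 CPM. The N+P mothers had 10.2, 4.74 and 7.29 in C1 and 64.7, 42.5 and 47.98 in C5. Without the left-out library the 3 groups did not overlap, and N+P C5 also lay above every sample of every other group. The left-out library alone had 4.91 CPM, above the lowest C1 value. Sensitized mice had 1.11, 0, 0.0303 and 0, and S+P C4 was at 0 in 4 of 6 samples, with 0.0663 CPM in replicate 6 and 7.05 CPM in replicate 5. S+P C5 ran from 7.45 to 27.3 CPM, with a median of 15.5, above every Sensitized sample and, narrowly, every S+P C4 sample, and S+P C7 had 7.09, 0, 12.4, 14.7 and 2.03. The zeros of S+P C4 replicates 2 and 3 and of S+P C7 replicate 3 were in samples with few detected genes. Naive averaged 0.166 ± 0.287, N+P C1 averaged 7.39 ± 2.71 and N+P C5 averaged 51.7 ± 11.6 (mean ± SD). Sensitized averaged 0.286 ± 0.552, S+P C5 averaged 15.4 ± 7.57 and S+P C7 averaged 7.24 ± 6.35.

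The edgeR log2 fold change of *Spry1* was 8.24 ± 2.92 (SE) in N+P C5 versus Naive and 5.70 ± 2.21 (SE) in S+P C5 versus Sensitized. Neither passed (adjusted p = 0.763 and 0.276), while DESeq2 called both (adjusted p = 0.00696 and 0.0251). Over the 10 genes, 5 were higher in N+P C5 than in Naive without overlap (*Dusp4*, *Dusp6*, *Spry1*, *Spry2* and *Rgs16*) and *Dusp10* was lower. Of all genes, 7.4% were higher and 5.48% lower in this way. Without overlap, 3 of the 10 differed in Sensitized versus Naive, 5 in N+P C1 versus Naive and 3 in N+P C5 versus N+P C1, beside 7.59%, 7.3% and 10.8% of all genes. *Spry1* was the single gene of the 10 without overlap in S+P C5 versus Sensitized (2.88% of all genes), in S+P C5 versus S+P C4 (0.687%) and in S+P C5 against N+P C5 (2.67%), where it was lower in S+P C5. The comparisons of C5 with Naive and of C1 with Naive share the Naive mice. The counts of genes without overlap versus Naive were made without the left-out library and were not repeated with it kept as Naive. That library had 5.69 CPM of *Dusp4*, 49.5 of *Dusp6*, 4.91 of *Spry1*, 5.46 of *Spry2* and 12.8 of *Rgs16*. The lowest N+P C5 values of these genes were 0.497, 47.3, 42.5, 7.89 and 4.68. For *Dusp10* the library had 63.7 CPM, beside a highest N+P C5 value of 88.5. With the left-out library kept as Naive, the log2 fold change of *Spry1* in N+P C5 was 5.86, with an edgeR adjusted p of 0.775. Against S+P C4, where the fold change was 3.69 ± 1.67 (SE) (adjusted p = 0.325), leaving out S+P C4 replicate 5 gave 9.52 and an adjusted p of 0.0875 with edgeR, which then called 0.0616% of all genes.

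*Spry2* (ENSMUSG00000022114, chromosome 14, 106128766 to 106136446, minus strand), a related inhibitor, had its lowest mean in Naive mice. Naive mice had 0, 1.13 and 0.982 CPM, N+P C1 1.75, 1.64 and 11.3 and N+P C5 7.89, 20.01 and 51.5. Both N+P subsets lay above Naive. Sensitized mice had 19.3, 13.6, 25.2 and 4.78 before any pregnancy, again above Naive. The left-out library alone had 5.46 CPM, above the lowest values of N+P C1 and Sensitized and below those of N+P C5. The S+P C4 samples spanned 0 to 75.9 CPM, with a median of 42.8, S+P C5 12.8 to 50.5 CPM, with a median of 32.95, and S+P C7 had 37.1, 87.2, 48.5, 19.4 and 12.1, all overlapping with Sensitized. The log2 fold change versus Naive was 5.22 ± 1.62 (SE) in N+P C5 and 4.47 ± 1.53 (SE) in Sensitized (edgeR adjusted p = 0.763 and 0.626). DESeq2 called both (adjusted p = 0.00106 and 0.00409). So did edgeR without the 3 samples of few detected genes (adjusted p = 0.0229 and 0.0501), a fit that called 0.619% and 0.782% of all genes. In S+P C5 versus Sensitized it was 1.02 ± 1.10 (SE) (edgeR adjusted p = 1). The difference between the changes in the 2 lineages, S+P C5 versus Sensitized minus N+P C5 versus Naive, was -4.21 ± 1.79 (SE) (edgeR adjusted p = 0.674).

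*Rgs1* (ENSMUSG00000026358, chromosome 1, 144118034 to 144124980, minus strand) limits chemokine receptor signals through Gi proteins. It had 167, 428 and 244 CPM in Naive, 295, 294 and 143 in N+P C1 and 637, 306 and 201 in N+P C5, which overlapped. Sensitized mice had 761, 717, 1035 and 126, with replicate 4 below every Naive mouse. S+P C4 ran from 103 to 934 CPM, with a median of 567, S+P C5 from 253 to 1313 CPM, with a median of 914, and S+P C7 had 635, 1803, 1219, 1219.9 and 824. The highest mean was that of S+P C7, 1140.1 ± 449, and the lowest that of N+P C1, 244 ± 87.7 (mean ± SD). The log2 fold change was 1.24 ± 0.60 (SE) in Sensitized versus Naive, 1.19 ± 0.56 (SE) in S+P C5 against N+P C5 and 1.09 ± 0.46 (SE) in S+P C7 versus S+P C4. None of these passed (edgeR adjusted p = 0.626, 0.841 and 0.248). The S+P C7 value of 1803 CPM came from a sample with few detected genes, and without those 3 samples the last fold change was 1.16.

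*Rgs2* (ENSMUSG00000026360, chromosome 1, 143875076 to 143879899, minus strand), which prefers Gq proteins, had its lowest mean in N+P C5. The values were 105, 39.2 and 12.01 CPM there, 135, 86.9 and 60.1 in N+P C1 and 221, 177 and 91.3 in Naive, and they overlapped. Sensitized mice had 177, 203, 175 and 54.5. S+P C4 ran from 1.29 to 247 CPM, with a median of 109 and S+P C5 from 5.14 to 97.4 CPM, with a median of 67.9. S+P C7 had 64.4, 553, 118, 48.3 and 14.8, and the 553 CPM of replicate 3, a sample with few detected genes, was the highest of all 30 samples. The log2 fold changes were -1.65 ± 1.15 (SE) in N+P C5 versus Naive and -1.37 ± 0.87 (SE) in S+P C5 versus Sensitized (edgeR adjusted p = 0.921 and 0.632). Here too the dissociation genes were lower, at 1595 to 4797 CPM in S+P C5 against 3364 to 7461 in Sensitized, and their part was not tested.

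*Rgs16* (ENSMUSG00000026475, chromosome 1, 153616091 to 153621228, plus strand), a regulator of Gi and Gq signals that activated T cells express, had no count in any of the 5 Naive libraries used. N+P C1 had 1.14, 4.53 and 2.47 CPM and N+P C5 41.9, 4.68 and 23.8. All N+P values were above 0, and the lowest C5 value barely exceeded the highest C1 value. Taking for Naive the 3 counts per sample that a count of 0 allows, the mean of N+P C5 was 189.9-fold and that of N+P C1 21.98-fold above this floor. The floor covers counting error only, so these folds are not lower bounds given the spread between libraries and mice. In Sensitized mice it had 5.52, 0, 0 and 0, and the 2 libraries of replicate 1 had 0 and 11.1 CPM. S+P C4 ran from 0 to 17.4 CPM, with a median of 1.36, S+P C5 from 0 to 68.5 CPM, with a median of 32.4, and S+P C7 had 5.55, 0, 27.5, 72.2 and 11.3. S+P C5 replicate 2 was at 0, so S+P C5 overlapped with Sensitized. The fold changes versus Naive did not pass with edgeR (adjusted p = 0.763 for N+P C5, 0.994 for N+P C1) and were called by DESeq2 (adjusted p = 1.13e-18 and 3.61e-14), which called 3.33% of all genes in N+P C1. The DESeq2 log2 fold changes, 26.2 and 23.1, rest on a Naive group without counts. Their size and these p-values therefore say little about the strength of a change. DESeq2 also called *Rgs16* in Sensitized versus Naive (log2 fold change 22.1, adjusted p = 7.16e-15), where 3 of the 4 Sensitized mice were at 0. In S+P C5 versus Sensitized the log2 fold change was 4.63 ± 2.21 (SE) (edgeR adjusted p = 0.368). With the left-out library kept as Naive, the edgeR log2 fold change was 3.64 in N+P C5 and 0.53 in N+P C1 (adjusted p = 0.996 and 1), so the absence from Naive holds only without it.

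**Figure D2:**
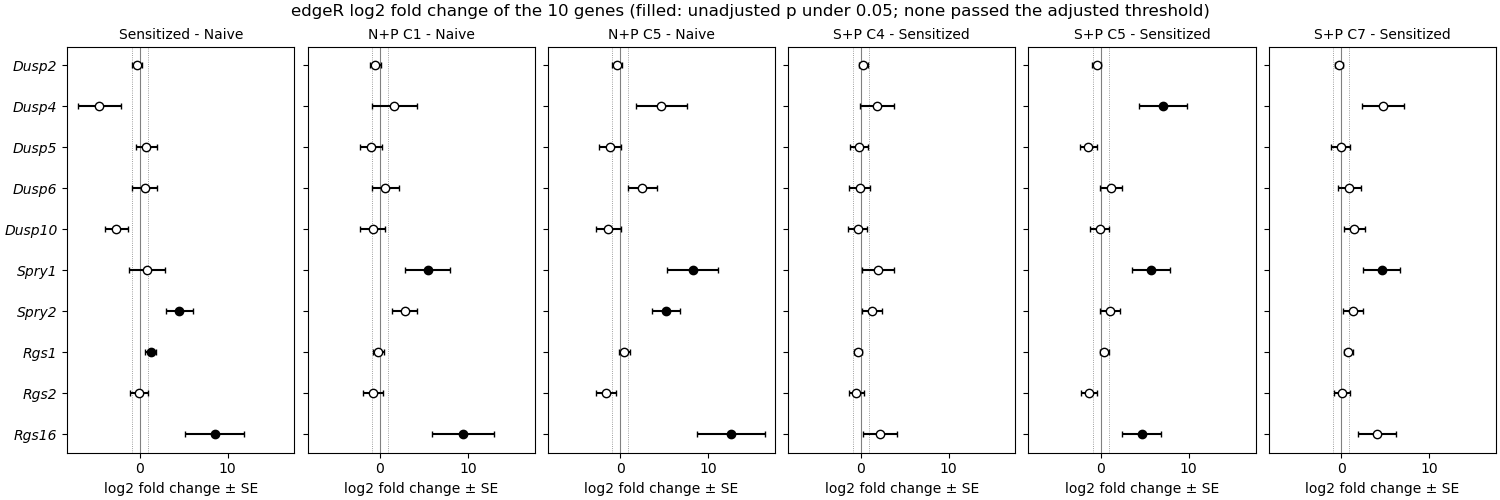
edgeR log2 fold change ± SE on the horizontal axis for each of the 10 genes in 6 comparisons, the first 3 with Naive and the last 3 with Sensitized as the reference. Dotted lines mark 0.9 in either direction and filled points an unadjusted p under 0.05. The filled points lie to the right of 0, and none of the 60 values passed the adjusted threshold.

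Subsets with the same replicate number were taken as coming from the same mother, which the labels do not state. On that reading each gene could be compared within mothers. How many of all tested genes kept the same direction in every mother was not counted, so the directions that follow are descriptions. In all 3 N+P mothers C5 was above C1 for *Dusp4*, *Dusp6*, *Spry1*, *Spry2*, *Rgs1* and *Rgs16*, and below C1 for *Dusp10* and *Rgs2*. Some of these steps were small in replicate 2, from 4.53 to 4.68 CPM for *Rgs16*, from 294 to 306 CPM for *Rgs1* and from 91.3 to 88.5 CPM for *Dusp10*. In all 6 S+P mothers C5 was above C4 for *Dusp6*, *Spry1* and *Rgs1*, and in 5 of 6 for *Rgs16*. For *Dusp6* and *Spry1*, the C4 samples of mothers 2 and 3 were at 0 CPM and had few detected genes. Mother 6 had only 22.7 CPM of *Dusp6* in C5 against 21.6 in C4. Levels of *Dusp5* and *Rgs2* in C5 were below those in C4 in 5 of the 6 mothers. From C5 to C7, which part by CD73, *Spry1* was lower and *Rgs1* higher in replicates 3, 4, 5 and 6. *Rgs1* was also higher in C7 than in C4 in these 4 mothers. S+P C7 replicate 1 averages libraries labelled as replicates 1 and 2, and which mother it belongs to is not settled. Its *Rgs1* level of 635 CPM was above C4 and C5 of mother 1 (459 and 613 CPM) and below those of mother 2 (934 and 1213 CPM). Its *Spry1* level of 7.09 CPM was below C5 of mother 1 (13.7 CPM) and narrowly below that of mother 2 (7.45 CPM). With the mother as a block edgeR called 0 of the 10 genes in any of these comparisons. A fit of only the N+P C5 and N+P C1 samples, without the block, called *Spry1*, where it called 0.386% of all genes. The larger fit called 0 of the 10 there, with 0 at an unadjusted p under 0.05 (4.34% of all genes), and DESeq2 also called 0 (3.79%).

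**Figure D3:**
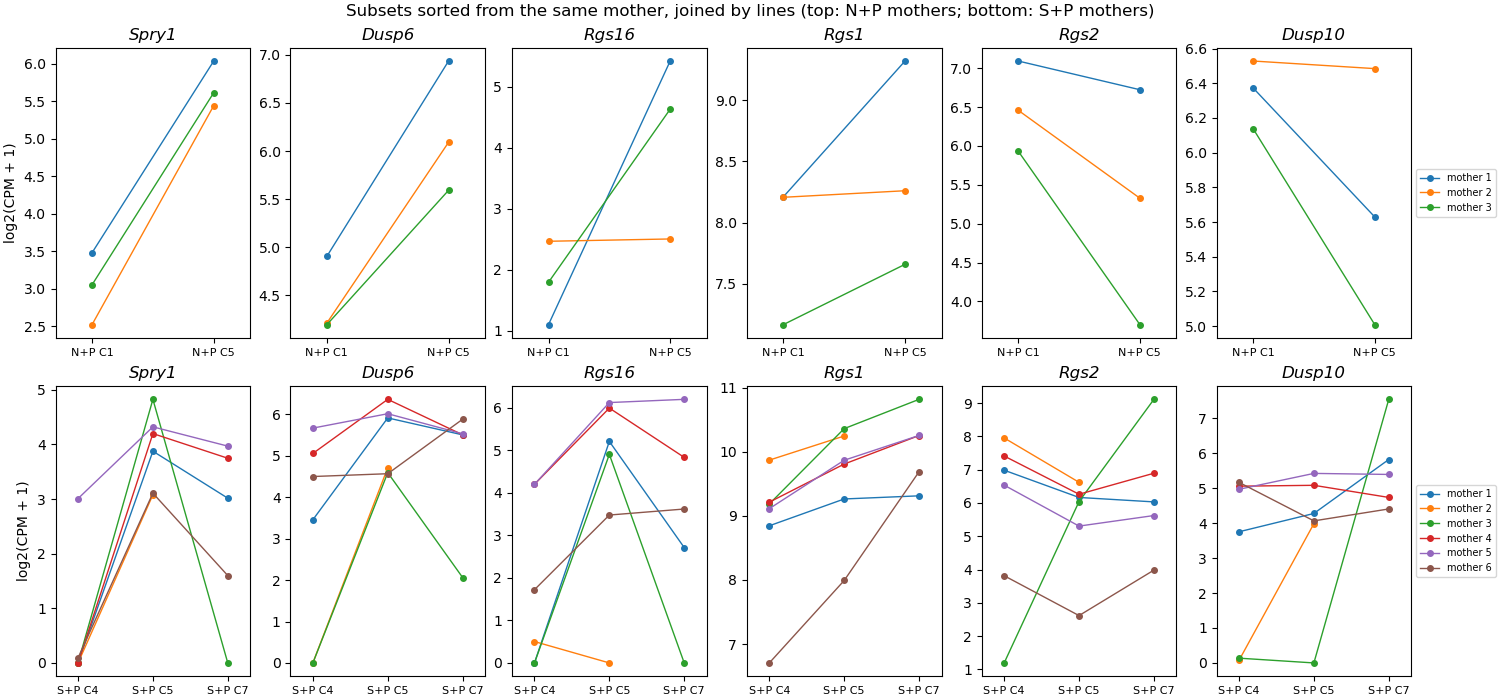
Level as log2(CPM + 1) on the vertical axis in the subsets with the same replicate number, taken as 1 mother and joined by lines, for 6 of the genes. The upper row has the 3 N+P mothers (C1 and C5) and the lower row the 6 S+P mothers (C4, C5 and C7, the last for 5 mothers), on a separate scale in each panel. *Spry1* and *Dusp6* rise from the PD1- subset to C5 in every mother drawn, and *Rgs1* rises again to C7 in mothers 3 to 6. The C7 sample drawn for mother 1 averages libraries labelled as replicates 1 and 2.

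The genes differed widely in abundance, which is compared here per kilobase of annotated exon. *Dusp2* had the highest mean in 5 groups, from 139 to 199.6 CPM per kb there, and *Rgs1* in S+P C5 and S+P C7, at 125 and 164. In S+P C5, *Dusp2* had 111. *Dusp5* and *Rgs2* lay between 14.3 and 62.9 CPM per kb over all groups. *Spry1* had 0.0347 for Naive mice and 10.8 for N+P C5, and *Dusp4* did not exceed 1.93. The annotated exons of *Rgs1* cover its whole span, which lowers its value on this scale.

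**Figure D4:**
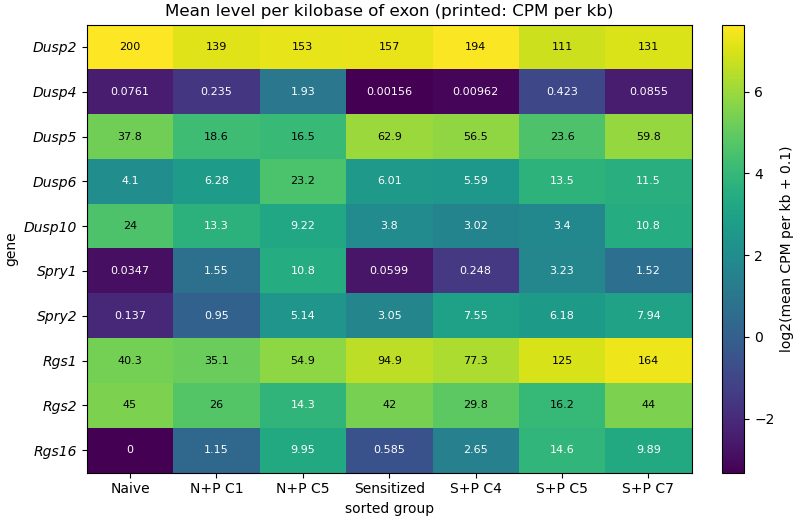
Mean level per kilobase of exon of each gene (rows) in each sorted group (columns), printed in CPM per kb and coloured by log2(mean CPM per kb + 0.1). *Dusp2* and *Rgs1* are the brightest rows, *Dusp4* the darkest, and the rows of *Spry1* and *Rgs16* turn from dark in Naive and Sensitized to brighter in both C5 subsets.

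How far a single level can be trusted was read from the 23 mouse-and-subset samples with a pair of libraries from 200 cells each. The abundant genes agreed between libraries, with a median absolute difference of 0.345 for *Dusp2* and 0.356 for *Rgs1* on the log2(CPM + 1) scale. It was 0.742 for *Spry1*, 1.02 for *Spry2*, 1.12 for *Dusp6* and 1.64 for *Rgs16*. *Rgs16* was at 0 in 1 library and above 0 in the other in 4 of the 23 pairs, and *Dusp4* in 9. *Spry1* did so in 4 pairs, with at most 3.27 CPM in the library above 0. Its levels in N+P C5 were 55.6 and 65.04, 57.6 and 30.2, and 61.8 and 49.97 CPM in the library pairs of the 3 mothers. The largest difference for *Spry1* was 3.95, in S+P C7. For *Rgs16* the library pairs of N+P C5 had 10.7 and 58.1, 9.08 and 0.134, and 14.6 and 49.9 CPM, and those of N+P C1 had 0 and 1.53, 0 and 10.6, and 0 and 5.74. Each N+P C1 mother thus had *Rgs16* counts in 1 of its libraries only.

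**Figure D5:**
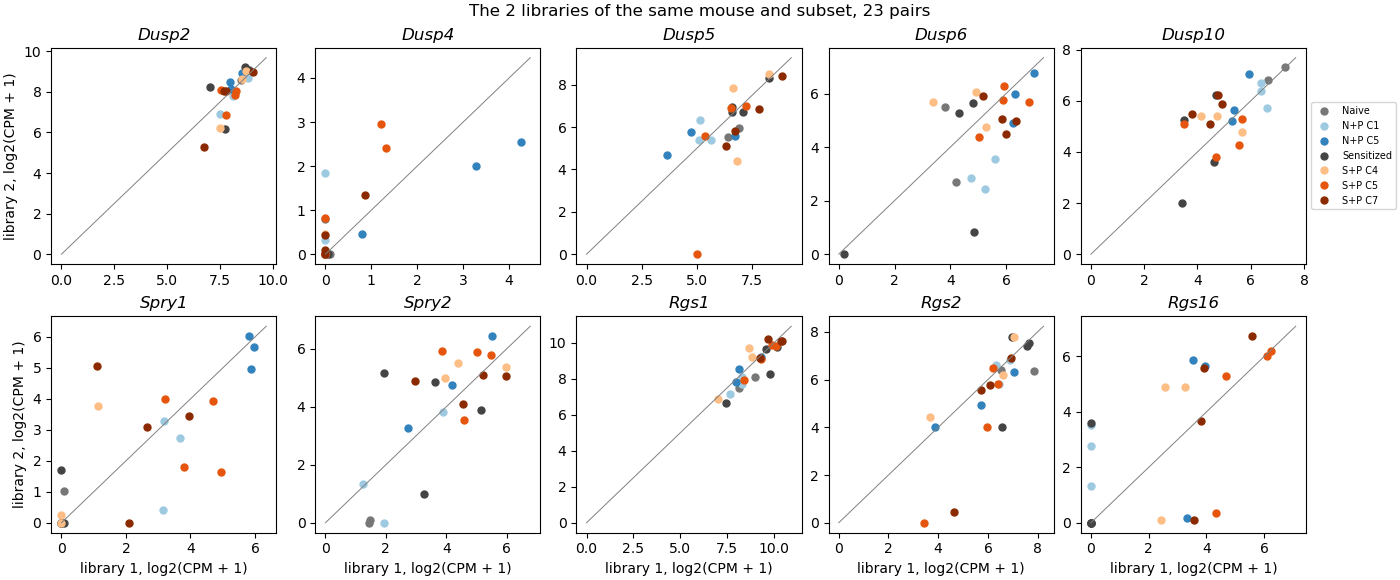
Level in the second library against the first, both as log2(CPM + 1), for the 23 samples with a pair of libraries, coloured by group. The grey line marks equal levels. Points of *Dusp2* and *Rgs1* lie near the line, while those of *Rgs16* and *Dusp6* scatter, some on an axis.

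The pathway around these genes was examined through 78 more genes in 7 lists, of which 69 were tested. None passed both thresholds with edgeR in any of the 12 comparisons. At an unadjusted p under 0.05, 5 were higher and 2 lower in N+P C5 versus Naive, and 2 were higher and 3 lower in S+P C5 versus Sensitized. These are 10.1% and 7.25% of the 69, beside 5.34% and 13.0% of all genes. DESeq2 called 6 and 3 of the 69 in these comparisons, beside 4.88% and 5.16% of all genes. Among 13 tested DUSP genes outside the 10, *Dusp14*, a small phosphatase that damps T cell receptor signals, had the smallest p in both. It had no count in Naive or Sensitized mice and a mean of 12.8 ± 8.06 CPM (SD, n = 3) in N+P C5. The mean of S+P C5 was 14.2 ± 12.8 CPM (SD, n = 6), and the edgeR adjusted p was 0.763 and 0.237 for the respective comparisons. In the other subsets *Dusp14* had 0.406 ± 0.704 CPM (N+P C1), 6.55 ± 8.09 (S+P C4) and 10.6 ± 6.37 (S+P C7, all SD). Of the 4 other Sprouty and Spred genes tested, *Spry4* and *Spred3* had the smallest p, and their means were at most 2.16 CPM in any group. Of 9 RGS genes, *Rgs12* and *Rgs17* had the smallest p. The Naive mice had 12.2 ± 10.7 CPM of *Rgs12* and N+P C5 had 0.0103 ± 0.0179 CPM (SD, n = 3 each). *Rgs17* had 1.89 ± 3.78 CPM (SD, n = 4) in Sensitized, from 0 to 7.55, and was at 0 in all S+P C5 samples.

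Of 20 genes of the RAS-ERK cascade, *Nf1* and *Rasa1*, which both code for proteins that switch RAS off, had the smallest p. *Rasa1* went from 57.5 ± 19.2 CPM (SD, n = 4) in Sensitized mice to 216 ± 168 CPM (SD, n = 6) in S+P C5, a log2 fold change of 1.91 ± 0.60 (SE) with an edgeR adjusted p of 0.276, and DESeq2 called it. *Nf1* had 0.822 ± 1.35 CPM in Naive and 9.27 ± 7.30 in N+P C5 (SD, n = 3 each). The 7 JNK and p38 genes gave no p under 0.05, with *Map2k3* and *Mapk8* the closest, at a log2 fold change of -0.60 (N+P C5) and 0.74 (S+P C5), respectively. Of 11 ERK-responsive early genes, *Etv5* was at 0 in Naive and had 1.57 ± 1.45 CPM in N+P C5 (SD, n = 3). *Egr3* had 0.296 ± 0.592 CPM in Sensitized (SD, n = 4) and 5.66 ± 5.95 in S+P C5 (SD, n = 6). Of 5 G-protein alpha subunits, *Gnaq* had the smallest p in both comparisons. Its mean was 0.0110 ± 0.0191 CPM for Naive mice, 12.2 ± 11.9 CPM for N+P C5, 4.24 ± 5.51 CPM for Sensitized mice and 14.2 ± 7.76 CPM for S+P C5 (SD). The unadjusted edgeR p, from the fit across all genes, was 0.00363 for N+P C5 versus Naive and 0.327 for S+P C5 versus Sensitized.

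As lists, the 10 genes had a median log2 fold change of 1.47 in N+P C5 versus Naive and 0.71 in S+P C5 versus Sensitized, beside 0.00 and -0.01 over all tested genes. For the RAS-ERK cascade these medians were 0.29 and -0.03, and for the early genes -0.17 and 0.42. Among relatives of the 10 they were 0.06 and -0.20 for other DUSP genes, -1.004 and 0.17 for other Sprouty and Spred genes, and -0.56 and 0.37 for other RGS genes. Some genes that mark other cells were also higher in N+P C5. Myeloid genes were not, with a sum of 0 to 7.51 CPM in N+P C5 and 0 to 50.3 in Naive. Genes of CD4 T cells had a sum over 4 genes of 11.3 to 50.4 CPM in N+P C5 and 2.35 to 8.60 in Naive. Among them *Cd4* was at 0 in all N+P C5 and S+P C5 samples. In N+P C5, *Cd40lg* had 5.41 to 48.1 CPM, *Zbtb7b* 1.61 to 9.28 and *Foxp3* 0 to 4.32. For S+P C5 the sum was 5.29 to 25.1 CPM and for Sensitized mice 4.81 to 37.3. Natural killer cell genes summed to 38.1 to 66.6 CPM in N+P C5 and 0.0823 to 55.4 in Naive, and to 107 to 202 CPM in S+P C5 and 99.3 to 227 in Sensitized. Of these 4 genes, *Ncr1* and *Klra8* were at 0 in every sample of both C5 subsets. *Klrb1c* had 2.42 to 9.42 CPM in N+P C5 and 0 to 0.0823 in Naive, and 0 to 62.2 CPM in S+P C5 and 53.3 to 126 in Sensitized. The remaining gene of that list was *Eomes*, whose protein the paper also reported in TFGS. Erythroid and platelet genes summed to 4.22 to 114 CPM for N+P C5 and 0 to 2.76 for Naive mice, and to 2.15 to 48.9 CPM for S+P C5 and 0.575 to 5.50 for Sensitized mice. Their part in the results was not tested.

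Across all tested genes, those whose levels over the 30 samples were most like each of the 10 were found by Spearman's rho. For *Dusp6* they included *Neil2* (0.819) and *Pdcd1* (0.797), which codes for the PD-1 of the sort gate. For *Rgs16* they included *Lag3* (0.844), a co-inhibitory receptor, and *Cd200* (0.819). *Spry1* had *Gm4956* (0.839), *Gm11579* (0.821) and *Mmd* (0.820). *Dusp2* was most like the linker histone gene *H1f2* (0.913), then *Atp5f1d* (0.822) and the early gene *Zfp36* (0.811), and *H1f2* also led for *Rgs2* (0.787), where *Snord104* (0.749) was another. *Rgs1* had *S100a11* (0.838), *Hprt1* (0.824) and *B2m* (0.818), and *Dusp5* had *Eno1* (0.832), *S1pr4* (0.8291) and *Ostf1* (0.826). *Dusp10* had *Gm27219* (0.832), *Ndrg3* (0.800) and *Nop56* (0.778), *Spry2* had *Slc46a3* (0.768), *Mindy3* (0.764) and *Rbm47* (0.762), and *Dusp4* had *Pfkfb4* (0.695), *Grhl1* (0.692) and *C2cd4b* (0.690). The samples differ in depth and share mothers, so no test was made. Within the 10, *Dusp2* and *Rgs2* also went together (0.665), and *Rgs2* ran against *Spry1* (-0.439) and *Rgs16* (-0.387).

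S+P C5 and N+P C5, the PD1+CD73+ subsets of mothers with and without earlier sensitization, were compared directly. *Spry1* had 15.4 ± 7.57 CPM (SD, n = 6) in S+P C5 and 51.7 ± 11.6 CPM (SD, n = 3) in N+P C5, a log2 fold change of -1.75 ± 1.77 (SE) with an edgeR adjusted p of 1. The other 9 genes overlapped. The difference between the lineages in their changes was largest for *Rgs16*, at -7.96 ± 3.66 (SE) (edgeR adjusted p = 0.715). DESeq2 called it, as it did 4.07% of all genes. The edgeR value turned to 0.98 with the left-out library kept as Naive and to 0.55 without Sensitized replicate 1. Antisense genes overlap *Dusp5* (Gm50394), *Dusp6* (Gm34921), *Dusp10* (1700056E22Rik), *Spry1* (Gm42922) and *Rgs16* (Gm28513), and since the strand setting of the counting is not stated, reads from each pair cannot be told apart.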

How the data were processed

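RNA-Seq libraries were prepared by SmartSeq2 and Nextera XT from 200 sorted TFGS each, without molecular identifiers, and sequenced in 1 run. The authors trimmed reads with cutadapt 3.4, aligned them to GRCm39 with STAR 2.6.1b, removed multi-mapping reads and counted the rest with featureCounts 2.0.1 (versions from the submitters' processing notes). They deposited raw counts per gene in 56 columns. The annotation release and strand option are not given in the sources used here. Every column belonged to a labelled sample. Libraries had 6636532 to 32625243 counts. A floor of 3 counts covers counting error only.

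Technical columns of each sample were added up. A column identical under Naive and S+P C4 was dropped from both, and a near-identical S+P C7 pair (r of 0.999 on log2 CPM across genes, against at most 0.953 within a mouse and subset) was averaged. Counts were tested with edgeR 4.0.16 (two-sided quasi-likelihood test, robust fit to the 7 groups, TMM, genes kept by filterByExpr at 10 counts) in R 4.3.3, with Benjamini-Hochberg adjustment over 19659 genes. Calls needed an adjusted p below 0.1 and a log2 fold change beyond 0.9 in either direction. SE is the fold change over the root of F. CPM are TMM-scaled, except in single libraries, where totals were used. Symbols and positions came from GENCODE vM39 (54749 of 55359 genes matched), as did promoter starts. DESeq2 1.42.0 (adjusted p from independent filtering), separate technical columns, other normalization, filters and thresholds, the groups compared alone, a replicate block, all columns, and leaving out samples were alternatives. The script was tested on simulated data. pandas 2.3.3, numpy 2.4.6, scipy 1.17.1 and matplotlib 3.10.9 were used in Python 3.11.15.

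The genes and lists were chosen with earlier results of these data known. The rule for names took the 10 genes, of 7 pathway lists every gene past both thresholds and the gene with the smallest p for N+P C5 versus Naive and S+P C5 versus Sensitized, and for each of the 10 the 3 most alike genes, of which some are not reported here. Subsets of 1 lineage with the same replicate number were taken to come from the same mother, which the labels do not state. Their deviations from the group means correlated at 0.0473 on average between N+P C5 and C1 and 0.109 between S+P C5 and C4. The values were 0.174 between S+P C7 and C4 and 0.116 between S+P C7 and C5. Between groups of different mice, the same number gave 0.0102 (N+P C5 and Naive) to 0.0728 (S+P C4 and Sensitized). The N+P value lies within that range. Other data of the study were not analysed here.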

Additional observations from a re-analysis of the deposited data

Results flagged for a closer look

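In groups of 4 or more samples, 10 of 40 gene-and-group sets had a highest or lowest sample far from its nearest neighbour for the width of the group. Chance flags about 1 in 20 such sets where values are normally distributed, and a single value above 0 among zeros is always picked, as in 3 of the 10. Of the 10, 4 were in Sensitized replicate 1, which had 0.0180 CPM of *Dusp4* (the others at 0), 308 CPM of *Dusp5* (next 123), 1.11 CPM of *Spry1* (next 0.0303) and 5.52 CPM of *Rgs16* (the others at 0). S+P C7 replicate 3, a sample with few detected genes, had 3 of them, with 3.18 CPM of *Dusp6* (next 44.4), 186 CPM of *Dusp10* (next 55.6) and 553 CPM of *Rgs2* (next 118). S+P C7 replicate 4 had 1.11 CPM of *Dusp4* (next 0.0978), S+P C4 replicate 4 had 0.166 CPM of *Dusp4* (the others at 0), and S+P C4 replicate 5 had 7.05 CPM of *Spry1* (next 0.0663). The *Dusp4* value of Sensitized replicate 1 is a single count.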

How the results depend on the processing

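edgeR called 0 of the 10 genes in each of 12 comparisons, and 143 of 156 other settings left this count at 0 (leaving out single replicates aside). Among these, a stricter adjusted p under 0.05 could only leave it at 0. Dropping the minimum fold change used the adjusted p of the same fit. Neither is a separate check. The exceptions were DESeq2, with 2 for Sensitized versus Naive, 1 for N+P C1 and 3 for N+P C5 versus Naive, 2 for S+P C5 versus Sensitized, 1 for S+P C5 versus S+P C4 and 1 for the difference between lineages. Separate technical columns called 1 (Sensitized versus Naive), 2 (N+P C5 versus Naive), 3 (S+P C5 versus Sensitized) and 1 (S+P C7 versus Sensitized). Dropping the samples under 9000 genes called 1 in Sensitized and 1 in N+P C5 versus Naive, and fitting only the groups compared called 1 in N+P C5 versus N+P C1. Leaving out 1 replicate gave counts from 0 to 1, the 1 being *Spry1* without S+P C4 replicate 5. The replicate block, fitted on the groups compared alone, called 0 in every comparison. Between groups of different mice the same number marks no shared animal, so the block there is no pairing and its 0 adds little. In N+P C5 versus N+P C1 the block removed the call of *Spry1* that the same fit without it made.

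The 18 gene-and-comparison pairs at an unadjusted p under 0.05 were picked from these same data. Settings that changed only a threshold reuse the main fold change, so they keep its direction by construction. With those settings included, 388 of 394 values for the 18 pairs kept their direction. The 6 others were all *Rgs16*. Leaving out single replicates, its log2 fold change ran from 0.00 to 8.94 in Sensitized versus Naive and from -8.45 to 0.55 for the difference between lineages. Its log2 fold change in Sensitized versus Naive was 8.51, and -0.43 with the identical column kept as Naive, -0.43 with all 56 columns and 0.00 without Sensitized replicate 1. The difference between lineages, -7.96, became 0.98, 0.98 and 0.55 under these settings. Libraries of 200 cells limit the scarce genes most.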
